A study of Homo sapiens with 18 samples.

Results

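The comparison described here is MLX knockdown in doxorubicin-treated RPE-1 cells, a human retinal pigment epithelial line immortalized with telomerase (hTERT). It sets 3 libraries from cells given an siRNA against MLX and then doxorubicin (siMlx with DXR) beside 3 libraries from cells given a control siRNA and then doxorubicin (siControl with DXR). These 6 libraries are chosen by their labels alone, out of 18 in the series. They are described across all 13676 expressed genes that could be tested, of 33121 listed. The series crosses 3 siRNAs (siControl, siMlx, and siMondoA against MLXIP, the gene of MondoA) with 2 states (untreated, or DXR at 150 ng/ml for 3 days). Each of the 6 groups holds 3 libraries, and every cell, controls included, was transfected for 2 days with Lipofectamine RNAiMax before any drug was given. The labels of the control libraries carry the tag siLuci. The labels give neither the siRNA sequences nor the number of siRNAs per target, so knockdown of MLX and any other effect of the siRNA cannot be told apart. They do not say that replicates are separate cultures either, and the p-values below measure only the spread between these libraries. Untreated libraries carry the tag D0 and drug-treated libraries the tag D5. A comparison across states thus holds the drug and any other difference behind those tags, possibly also the time since transfection. These cannot be told apart, also where results below are worded as with or without drug.

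MLX is a basic helix-loop-helix leucine zipper protein that binds DNA as the obligate partner of MondoA and of its paralogue ChREBP (gene MLXIPL), and it can also pair with repressors of the MXD family and with MNT. MondoA and MLX form a sensor of glucose-6-phosphate whose best known target is TXNIP, and their dimers bind E-box DNA. Doxorubicin traps topoisomerase II on DNA and breaks it, which stops division through p53 and p21 and, over days, drives cells towards senescence. Damaged cells of this kind often switch on the interferon system, in which secreted interferon acts through JAK kinases and STAT factors to raise antiviral genes.

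The targeted gene checked the labels. MLX (chr17:42567068-42573239, GRCh38) was at 26.4, 26.8 and 26.4 CPM (read counts scaled to library size by TMM) in the siControl libraries with DXR. It was at 5.7, 4.93 and 5.94 CPM in the siMlx libraries with DXR, so that 20.8% of the control level remained and the groups stood far apart. The fall was log2 -2.27 with an SE of 0.08 (adjusted p = 5.78e-14, from quasi-likelihood fits in edgeR with adjustment after Benjamini and Hochberg). MLXIP was at 64.0, 63.2 and 66.6 CPM with siControl and at 69.0, 67.5 and 72.6 CPM with siMlx (log2 0.11, SE 0.09, edgeR adjusted p = 0.372). On the deposited scale per length, MLXIP was at 10.8 ± 0.20 RPKM and MLX at 9.97 ± 0.22 RPKM (mean ± SD, n = 3) in the control cells, and MLX stood at 2.05 ± 0.17 RPKM with siMlx. MLXIPL had 2, 0 and 0 counts with siControl and 0, 2 and 0 with siMlx and was not tested.

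Library totals of the 6 libraries ran from 18342883 to 21858817 counts. Across tested genes, the correlation of log2 CPM between replicates was 0.9883 to 0.992, and the chi-square per degree of freedom between replicates was 6.82 to 9.39, so no replicate pair was within counting error of being one library. The first principal component of the 6 libraries held 52.4% of their variance and placed the siControl libraries at -30.0, -25.4 and -25.9 and the siMlx libraries at 27.1, 24.1 and 30.1. Of 16 markers of pigment epithelium, some were almost absent in both groups and others were expressed. MITF had 581, 666 and 692 counts with siControl and 320, 420 and 376 with siMlx. OTX2 had 276, 283 and 267 counts with siControl and 200, 245 and 198 with siMlx. RPE65, the retinoid isomerase, had 6, 2 and 1 counts with siControl and 12, 13 and 10 with siMlx, and TYR, RLBP1, DCT and LRAT had at most 6 counts in a library. The 16 markers summed to between 1117 and 1199 CPM with siControl and between 924 and 1026 CPM with siMlx, nearly all of it from the keratins KRT8 and KRT18. Of the 8 tested, MITF (log2 -0.69), MERTK (-1.13) and KRT18 (-0.40) fell. The call for MERTK ended without siMlx replicate 3 (log2 -0.89, edgeR adjusted p = 0.0564), and that for KRT18 ended in each of the 6 fits without 1 library (edgeR adjusted p 0.0549 to 0.11), with upper-quartile scaling (0.0586) and with DESeq2 (0.0519). Fibroblast markers summed to between 1146 and 1364 CPM with siControl and 1256 and 1596 CPM with siMlx. Blood and endothelial markers summed to between 121 and 130 CPM against 78.8 and 96.8, nearly all of it CD68, while PTPRC, CD3E and ITGAM had 35 counts or fewer in every library. In bulk RNA, fewer cells of a kind and less RNA per cell cannot be told apart, here and in every result below.

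With siMlx in doxorubicin-treated cells, 1908 of 13676 tested genes rose (14.0%) and 2221 fell (16.2%) at an edgeR adjusted p under 0.05. Large changes were mostly falls. At least a 2-fold fall was measured for 434 genes (3.17%) and at least a 2-fold rise for 76 (0.556%). The libraries of both groups did not overlap for 5940 genes (43.4%). The split of calls depended on scaling: with upper-quartile scaling, which moved the median of all genes from log2 0.006 to 0.046, 2506 genes were higher and 1953 lower. Of the 434 genes, 69 belonged to 5 lists of the interferon system and 47 to 4 lists of cell division and repair, and 298 to none of the lists used here. Of the 76 genes, 72 belonged to no list.

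**Figure D1:**
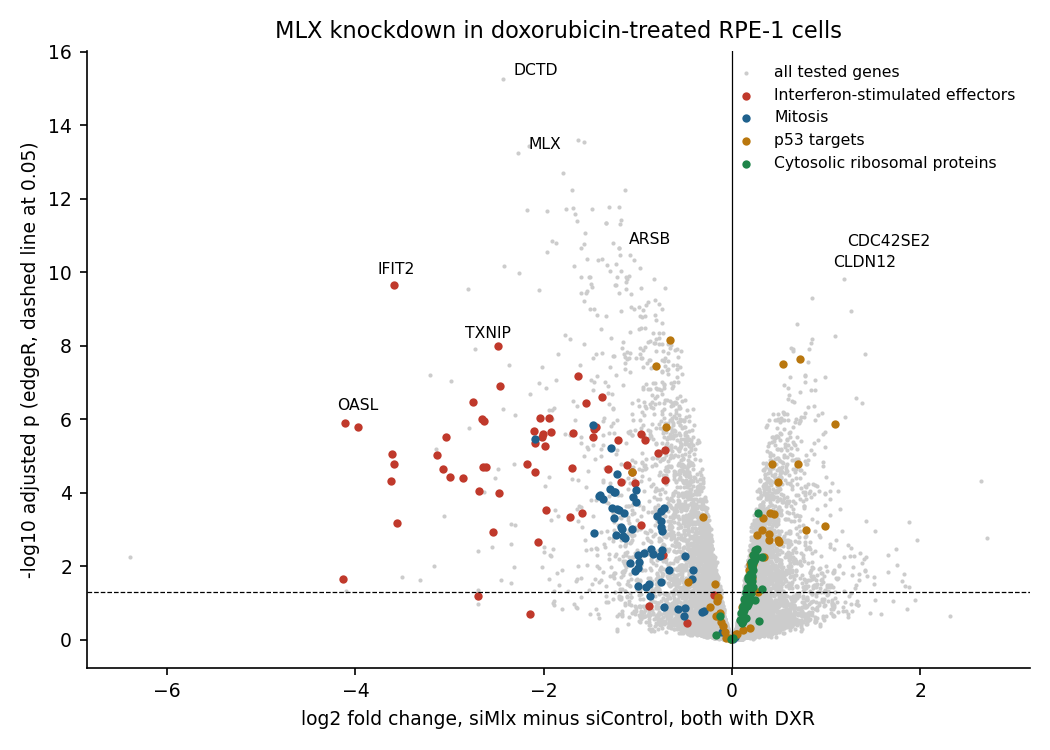
Each point is 1 of the 13676 tested genes: the x axis is the log2 fold change of siMlx minus siControl, both with DXR, and the y axis is -log10 of the edgeR adjusted p, with a dashed line at 0.05. Interferon-stimulated effectors (red) spread to log2 -4.13 on the left, mitotic genes (blue) lie between -2.09 and 0.03, and cytosolic ribosomal proteins (green) lie between -0.17 and 0.33.

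The largest falls were in interferon-stimulated genes. By the naming rule (past the test, at least 5 CPM in the higher group, no overlap between libraries), the 12 genes with the largest falls were OASL, OAS2, RSAD2, RTP4, MX2, IFIT2, BATF2, USP18, ISG20, OAS1, MX1 and IFITM1, and all 12 are known to be induced by interferon. OASL (chr12:121019111-121039242), an antiviral protein related to the oligoadenylate synthetases, was at 38.8, 16.8 and 25.9 CPM with siControl. It was at 3.49, 0.348 and 1.08 CPM with siMlx, every library below the lowest control (log2 -4.11, SE 0.46, edgeR adjusted p = 1.25e-06). OAS2 (chr12:112978395-113011723), which makes the 2′-5′ oligoadenylates that activate RNase L, was at 74.1, 33.4 and 56.8 CPM and fell to 6.63, 1.94 and 2.16 CPM (log2 -3.97, SE 0.46, edgeR adjusted p = 1.6e-06). The levels again did not overlap, and siMlx replicate 1 was the highest of its group for both genes.

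IFIT2 (chr10:89283694-89309276), which blocks translation of viral RNA, was the most abundant of the 12 with 345, 208 and 261 CPM. With siMlx it stood at 26.1, 22.7 and 18.9 CPM, or 8.31% of control (log2 -3.59, SE 0.22, edgeR adjusted p = 2.18e-10). Its siMlx libraries lay close together, unlike those of OASL. RSAD2, which encodes the antiviral enzyme viperin, went from 11, 3.38 and 9.64 CPM to 0.93, 0.348 and 0.702 CPM (log2 -3.62, SE 0.53, edgeR adjusted p = 4.9e-05). USP18, which removes ISG15 from proteins and dampens the interferon receptor, went from 79.7, 50.6 and 65.8 CPM to 14.4, 3.09 and 5.24 CPM (log2 -3.14, SE 0.41, edgeR adjusted p = 6.61e-06). The dynamin-like restriction factors followed, MX2 at log2 -3.59 and MX1 at -3.04, with RTP4 (-3.61), the AP-1 family factor BATF2 (-3.21), the exonuclease ISG20 (-3.13), the synthetase OAS1 (-3.07) and the membrane restriction factor IFITM1 (-2.99). For all 12, the calls held with each library left out in turn and under the other settings tried.

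**Figure D2:**
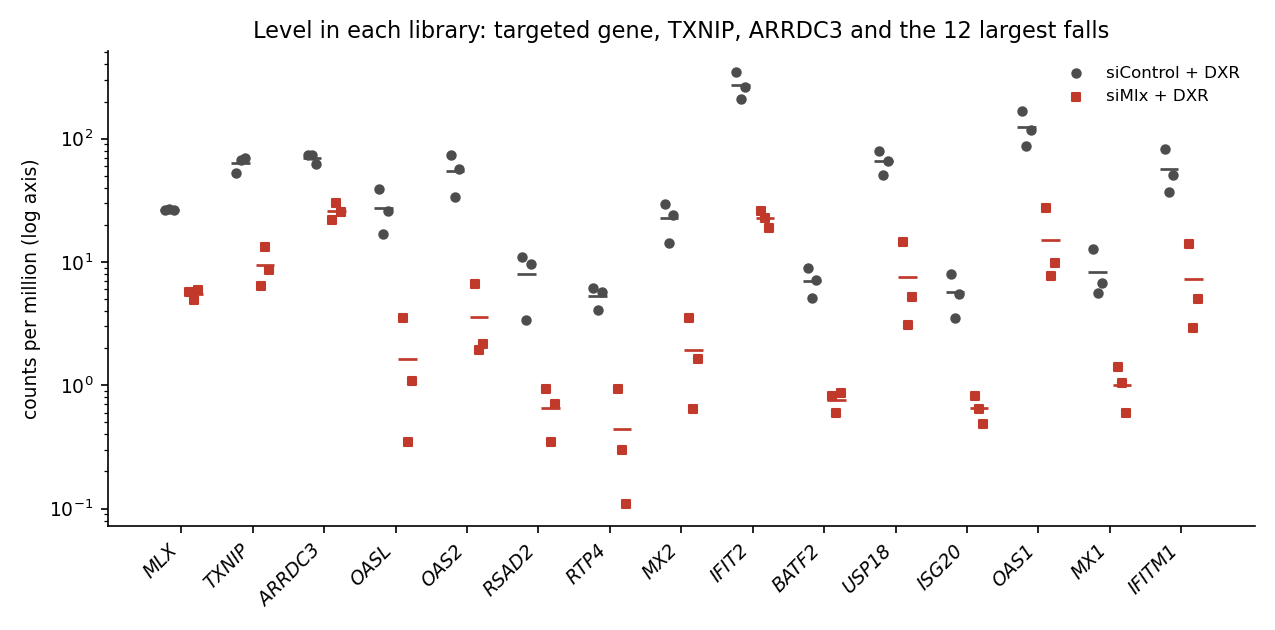
Points show the level in each library, in CPM on a log axis, for MLX, TXNIP, ARRDC3 and the 12 genes with the largest falls, with siControl and DXR in grey circles and siMlx and DXR in red squares; bars are means of 3 libraries. No gene shown has overlapping groups, and IFIT2 is the most abundant, at 208 to 345 CPM with siControl and 18.9 to 26.1 CPM with siMlx.

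The list of interferon-stimulated effectors fell almost as a whole. Of its 63 tested genes, 58 fell and none rose, against 16.2% lower and 14.0% higher among all tested genes. Its median was log2 -2.02, against 0.01 over all genes, and 60 of its genes had no overlap between libraries, against 43.4%. Falls passed the test in antiviral effectors (IFIT1 at -2.69, IFIT3 at -2.75, OAS3 at -2.64), in the ubiquitin-like ISG15 (-1.97) and its conjugating enzyme UBE2L6 (-2.63), in the ADP-ribosyltransferase genes PARP9, PARP10, PARP12 and PARP14 (-1.44 to -2.09), and in EIF2AK2, the kinase PKR (-1.18). The 5 that did not pass were at -0.19 to -2.70. Relative to the mean of the siControl libraries with DXR, the mean log2 level of the list was 0.32, -0.35 and 0.03 in those 3 libraries and -1.50, -2.48 and -2.33 in the siMlx libraries. siMlx replicate 1 was thus the nearest to control, and no siMlx library reached the lowest control. In untreated siControl cells the same list stood at -1.52, -2.20 and -2.34, within the range of the siMlx cells with DXR. Untreated siMlx cells were lower still, at -3.92, -3.90 and -3.91.

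The cytokine members were near the limit of counting. CXCL11, a chemokine induced by interferon, had 11, 4 and 10 counts with siControl and 1, 0 and 0 with siMlx, a ratio of 23.5-fold lower (95% exact counting interval 3.85 to 965; edgeR adjusted p = 0.0216). Its call ended without siControl replicate 1 (0.0634) or siMlx replicate 2 (0.0708) or 3 (0.0721). CXCL10 had 16 counts over the siControl libraries and 2 over the siMlx libraries, 7.52-fold lower (interval 1.77 to 67.4; edgeR adjusted p = 0.0632), and it passed with DESeq2 (0.0476), with no filter on low counts (0.0175) and with the replicate block (0.0398). These intervals cover counting error only.

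Many promoters of the effector list carry the core letters of the interferon-stimulated response element, the DNA word bound by interferon-activated transcription factors. The word searched was GAAANNGAA, on both strands, in the 250 bases before and 50 after each start site of RefSeq (GRCh38.p14). It stood in 35 of the 51 effector promoters in the table (68.6%) and in 9 of 17 promoters of MHC class I genes (52.9%), against 8.3% of all 27195 promoters and 6.53% of 10522 promoters of tested genes. Among genes at least 2-fold lower, 72 of 339 held it (21.2%), and among those at least 2-fold higher 2 of 50 (4%). The lower genes include 69 members of the interferon lists, so the same promoters can enter several of these shares. The E-box word CACGTG, which reads the same on both strands, stood in 29 of 339 promoters of genes at least 2-fold lower (8.55%), in 5 of 50 of those higher (10%), and in 10% of tested and 7.45% of all promoters. The stretches of 4 of the 12 genes are shown because they hold the word upstream of the start site, with its matches in capitals, each read along the gene's strand:
RSAD2, chr2:6865781-6865839: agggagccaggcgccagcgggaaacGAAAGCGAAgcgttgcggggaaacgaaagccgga
RTP4, chr3:187368318-187368384: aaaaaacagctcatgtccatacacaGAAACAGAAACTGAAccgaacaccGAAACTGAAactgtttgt
ISG20, chr15:88638922-88638980: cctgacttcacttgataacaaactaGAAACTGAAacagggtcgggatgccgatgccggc
IFITM1, chr11:313975-314033: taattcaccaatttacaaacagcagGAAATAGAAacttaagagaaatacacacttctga

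The RTP4 stretch has 3 matches, of which 2 overlap. RNA of the gene RTP4 was at 6.16, 4.1 and 5.71 CPM with siControl and 0.93, 0.299 and 0.108 CPM with siMlx. RNA of ISG20, whose stretch has 1 match, went from 8.0, 3.53 and 5.51 CPM to 0.814, 0.647 and 0.486 CPM. The table held 7 of the 12 genes with the largest falls. RSAD2, RTP4, ISG20, IFITM1 and MX1 had the word GAAANNGAA in their window, and ISG20 also held CACGTG, with 1 match. BATF2 and OAS1 had neither word, and neither did TXNIP. IFITM1 has a further match outside the stretch shown. A match is a description of the letters and not a measured binding site. Nor does a missing CACGTG tell whether MLX dimers bind a gene, as TXNIP, named above as their best known target, had none.

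Genes that carry the interferon signal fell with the effectors, and those for the ligands were hardly expressed. IFNB1, the gene of interferon beta, had 9, 2 and 0 counts with siControl and 0 in every siMlx library, and IFNL1, IFNL2, IFNL3, IFNK and IFNG had at most 1 count in a library. IFNE, also a ligand, stood at 0.47 ± 0.094 RPKM with siControl and 0.289 ± 0.05 RPKM with siMlx (mean ± SD). It was tested and did not pass. Of the receptor chains, IFNAR2 fell from 24.2, 22.3 and 22.3 CPM to 13.1, 13.9 and 11.2 CPM (log2 -0.85, SE 0.10, edgeR adjusted p = 1.34e-06). Its partner IFNAR1 stood at log2 -0.09 (adjusted p = 0.144). IL10RB, shared by the receptors of interleukin-10 and interferon lambda, fell (-0.31) and the interferon gamma receptor chain IFNGR1 rose (0.34).

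Among 15 tested genes of JAK-STAT signalling and its feedback, 10 fell and 1 rose (median log2 -0.49). The shares over all tested genes were 16.2% and 14.0%. STAT2 went from 172, 134 and 150 CPM with siControl to 53.7, 47.3 and 48.4 CPM with siMlx (log2 -1.61, SE 0.14, edgeR adjusted p = 3.29e-08), and its partner IRF9 fell as well (-0.80, SE 0.15, adjusted p = 0.000348). No siMlx library reached control for either gene. JAK2 (-0.80), TYK2 (-0.26), STAT3 (-0.53) and the phosphatase gene PTPN1 (-0.57) also fell. CISH, a feedback inhibitor of cytokine receptors, was the 1 that rose (1.74, from a mean of 0.183 CPM).

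Of 22 tested sensors of foreign or misplaced nucleic acid and their signalling partners, 16 fell and 1 rose (median log2 -0.93). For all tested genes these shares were 16.2% and 14.0%. TLR3, the endosomal sensor of double-stranded RNA, fell from 46.7, 28.8 and 32.6 CPM to 8.26, 6.87 and 5.78 CPM (log2 -2.37, SE 0.20, edgeR adjusted p = 3.28e-08). The cytosolic RNA sensor IFIH1 (MDA5, log2 -2.43) fell, as did RIGI (listed as DDX58, -1.38). ZBP1, a sensor of Z-form nucleic acid, had 15, 7 and 9 counts with siControl and none with siMlx, at least 9.71-fold lower against a floor of 3 counts over the group. The exonuclease TREX1 (-1.37), the DNA sensor IFI16 (-1.06) and the factors IRF2 (-1.15), IRF7 (-1.33) and IRF1 (-0.67) fell. The adaptor MYD88 (-1.12) and the kinase IKBKE (-0.42) fell as well. The factor IRF3 stood at -0.05 (adjusted p = 0.68), the adaptor MAVS at -0.02 (0.918) and the kinase TBK1 at -0.10 (0.263). TRAF3 rose (0.38). The adaptor STING1 (listed as TMEM173) fell (-0.38; 0.061 without siControl replicate 3 and 0.0615 without siMlx replicate 1), while its DNA sensor CGAS had 0, 0 and 0 counts with siControl and 0, 1 and 0 with siMlx. The program and annotation behind the counting were not given, so counts this low need not mean that CGAS RNA was absent.

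Antigen presentation by MHC class I fell mainly in its processing machinery. Of 21 tested genes 15 fell and none rose (median log2 -0.45), against 16.2% and 14.0% of all tested genes. PSMB9, an immunoproteasome subunit, went from 19.5, 10.2 and 15.1 CPM to 2.91, 1.54 and 1.3 CPM (log2 -2.98, SE 0.28, edgeR adjusted p = 9.19e-08). The peptide transporter genes TAP1 (-1.67) and TAP2 (-1.36), the class I transactivator NLRC5 (-1.47) and PSMB8 (-0.95) followed. The light chain B2M went from 956, 787 and 804 CPM to 574, 545 and 492 CPM (log2 -0.66, SE 0.09, adjusted p = 1.13e-05). Of the classical heavy chains, HLA-B stood at -0.39 (adjusted p = 0.011; 0.077 without siControl replicate 1 and 0.0581 without siMlx replicate 3) and HLA-C at -0.13 (0.262). These heavy chain genes are near-identical in places and highly variable between people, so reads could be shared among them.

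Genes of cell division were lower with siMlx. Of 59 tested mitotic genes 49 fell and none rose (median log2 -1.0), against 16.2%, 14.0% and a median of 0.01 over all genes. KIF4A, a chromokinesin, was at 15, 20.2 and 17.4 CPM with siControl and DXR and at 3.61, 4.63 and 4.1 CPM with siMlx and DXR (log2 -2.09, SE 0.26, edgeR adjusted p = 3.35e-06). ANLN, which builds the cleavage furrow, went from 88.6, 96.6 and 93.2 CPM to 32.3, 38.1 and 29.4 CPM (log2 -1.48, SE 0.17, adjusted p = 1.47e-06). Both genes parted the groups without overlap. KIF20A (-1.28), the checkpoint kinase BUB1 (-1.29), the survivin gene BIRC5 (-1.22), the polo-like kinase PLK1 (-1.02) and MELK (-1.02) fell alongside. MKI67, the proliferation marker, was at 41.3, 50.8 and 59.6 CPM and at 18.9, 24.9 and 31.9 CPM, without overlap (log2 -1.0, SE 0.35, adjusted p = 0.0351). Its call was the least firm of these, and ended with DESeq2 (0.0554) and without siControl replicate 2 (0.0695) or 3 (0.112) or siMlx replicate 1 (0.138) or 2 (0.0817).

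Replication genes fell less steeply: 37 of 53 tested fell and none rose (median log2 -0.53), against 16.2% and 14.0% of all tested genes. ORC1, of the origin recognition complex, was lowest (-1.60). DTL, a licensing control factor, fell from 17.1, 15.4 and 13.1 CPM to 5.52, 5.92 and 5.24 CPM (log2 -1.45, SE 0.20, edgeR adjusted p = 1.22e-05), and UHRF1 (-0.93), CDC6 (-1.07), DNMT1 (-0.53) and the thymidine kinase TK1 (-0.91) followed. Of 51 tested genes of double-strand break and crosslink repair, 21 fell and none rose (median -0.29), led by RAD51AP1 (-1.62) and the polymerase theta gene POLQ (-1.37), with BRCA2 (-1.09), BRCA1 (-0.94) and ATR (-0.34) among them.

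Regulators of the cycle moved both ways. Of 32 tested, 13 fell and 9 rose (median log2 -0.25), against 16.2% and 14.0% of all tested genes. FOXM1, the activator of mitotic genes, fell from 55.1, 61.7 and 56.7 CPM to 25.2, 32.4 and 29.5 CPM (log2 -0.99, SE 0.14, edgeR adjusted p = 2.23e-05), with CDK1 (-1.06), CCNA2 (-1.04), CCNE2 (-1.2), CCNB1 (-0.93) and the G1 kinase gene CDK6 (-0.49). The CCNE2 call ended without siControl replicate 1 (adjusted p = 0.0527). The other G1 kinase gene CDK4 (0.23), the D-type cyclin genes CCND1 (0.33) and CCND2 (1.32), and E2F3 (0.48), a transcription factor of the G1 to S step, rose. Of these, the calls for CDK4 (0.0547 to 0.0559), CCND1 (0.0601 to 0.114) and CCND2 (0.0563 to 0.121) each ended in at least 2 of the 6 fits without 1 library. RBL1, the pocket protein p107, fell (-1.60). Inhibitors of cyclin-dependent kinases moved both ways too. CDKN1A, the gene of p21, rose from 2079, 2534 and 2322 CPM to 2959, 3446 and 3326 CPM (log2 0.49, SE 0.08, adjusted p = 5.01e-05). CDKN2A, the gene of p16, rose from 148, 126 and 122 CPM to 215, 170 and 155 CPM (log2 0.45, SE 0.11, adjusted p = 0.00515), and its neighbour CDKN2B by 0.57, a call that ended without siControl replicate 3 (0.0535) or siMlx replicate 1 (0.0584). CDKN2C, the gene of p18, fell (-0.89, SE 0.16, adjusted p = 0.00033), and CDKN2D (-0.29, 0.177) and CDKN1B (0.16, 0.0524) did not pass. The rises of the list rested in part on siControl replicate 2, without which 5 members passed as higher.

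**Figure D3:**
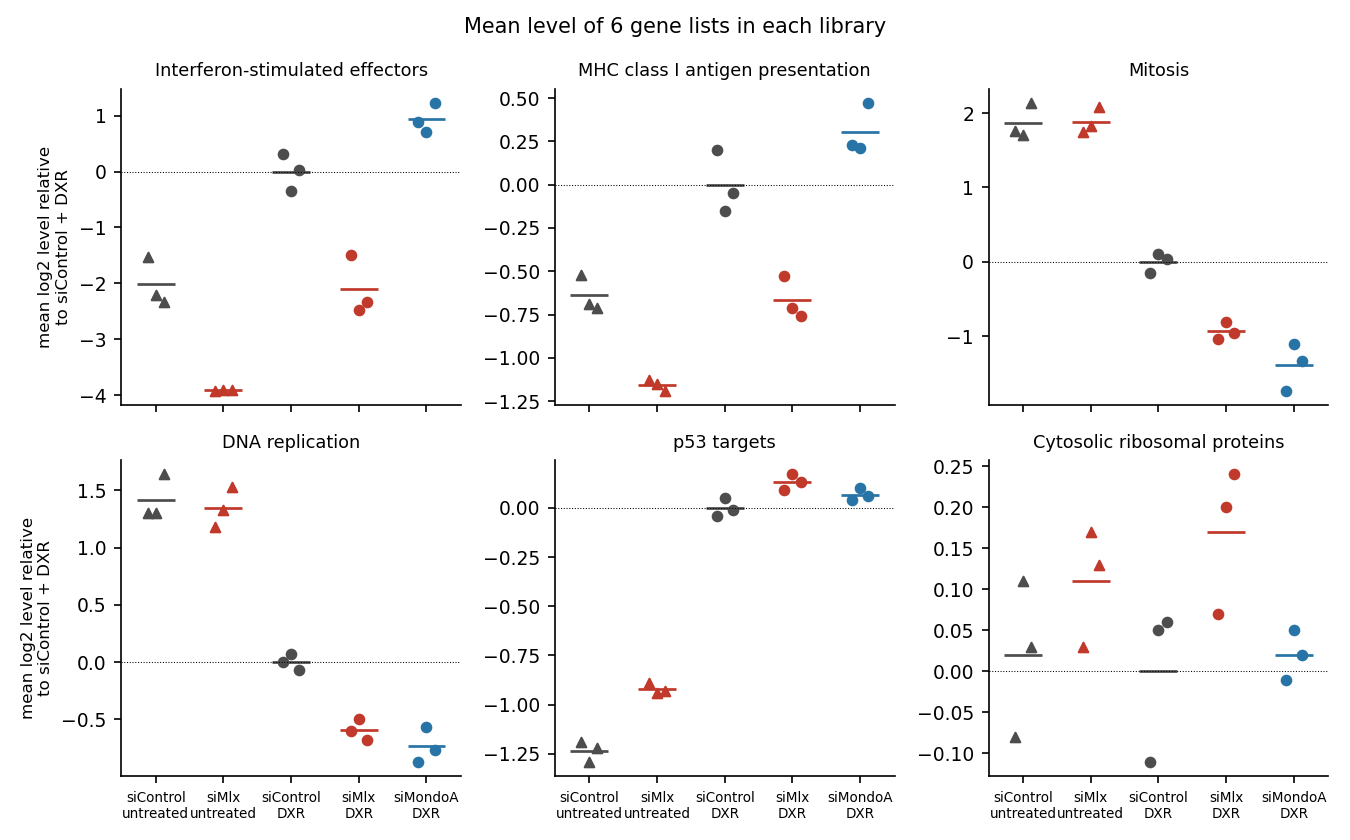
Each point is 1 library and gives the mean log2 level of a gene list relative to the mean of the siControl libraries with DXR, in 5 groups (triangles, untreated; circles, with DXR; bars, means of 3). The siMlx libraries with DXR lie below the siControl libraries with DXR for interferon-stimulated effectors, mitosis and replication, and the untreated siMlx libraries overlap untreated siControl for mitosis (1.74 to 2.08 against 1.70 to 2.13).

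In untreated cells the mitotic list had a median of log2 0.02 with siMlx, with 4 genes higher and 2 lower of 59, against 24.9% higher and 23.0% lower of all tested genes. The difference between both effects (the interaction, in which a negative value means that siMlx lowered a gene more, or raised it less, in DXR-treated than in untreated cells) was tested directly. It was negative and past the test for 38 of 59 mitotic genes and positive for none, against 5.81% negative and 6.43% positive of all tested genes. That count depended on the libraries: it was 20 without siMlx replicate 1 with DXR, 25 without siControl replicate 2 with DXR, 25 and 23 without untreated siControl replicates 1 and 2, and 22 without untreated siMlx replicate 3. For PLK1 the interaction was log2 -1.45 (edgeR adjusted p = 0.000315), for FOXM1 -1.22 (0.000276) and for BUB1 -1.17 (0.00624), while for MKI67 it was -1.2 and did not pass (0.1). Replication genes had 18 negative interactions of 53 and none positive, with 6 to 9 without any 1 of 8 libraries (untreated siControl replicates 1 and 2, untreated siMlx replicates 2 and 3, and with DXR siControl replicates 1 and 2 and siMlx replicates 1 and 3). In siControl cells, DXR against untreated had medians of -1.92 for mitosis and -1.50 for replication, so control cells with DXR were already low, and siMlx cells with DXR were lower.

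Targets of p53 were higher as a list. Of 54 tested, 25 rose and 7 fell (median log2 0.18), against 14.0%, 16.2% and a median of 0.01 over all genes. BBC3, the gene of the killer protein PUMA, rose from 14.4, 15.2 and 12.2 CPM to 31.3, 27.5 and 30.7 CPM (log2 1.10, SE 0.12, edgeR adjusted p = 1.34e-06). TNFRSF10D, a decoy receptor for TRAIL, was at 131, 283 and 222 CPM and at 383, 448 and 435 CPM (log2 0.99, SE 0.20, adjusted p = 0.000801). TP53I3 (0.73), BTG2 (0.70) and the death receptor TNFRSF10B (0.54) rose too. Not all targets followed: ZMAT3 (-0.70), FOXO3 (-0.81), BLOC1S2 (-0.66) and the interferon-inducible TRIM22 (-1.06) fell, and MDM2 (-0.16, adjusted p = 0.0882) and BAX (0.11, 0.132) did not pass. MDM2 did so without siMlx replicate 2 (-0.26, 0.00502) and BAX with upper-quartile scaling (0.15, 0.0433). Of the 54 targets 17 had a negative and 7 a positive interaction, against 5.81% and 6.43% of all tested genes. Positive ones included TNFRSF10D (0.99), MDM2 (0.49), BLOC1S2 (0.38), FOXO3 (0.33) and TP53I3 (0.29). The calls for TNFRSF10D, FOXO3 and TP53I3 ended under some alternatives. The effect of siMlx on BAX, BBC3, BTG2 and CDKN1A was smaller with DXR than without it (interactions of -0.48, -1.18, -0.68 and -0.79, all past the test). That of BTG2 lost its call in 5 of the 12 fits without 1 library (adjusted p 0.0515 to 0.0891). The siControl cells with DXR already held the list at a median of 0.90 above untreated.

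Of 14 tested glucose-responsive targets of the MLX partners, 6 fell and none rose (median log2 -0.08), against 16.2% lower and 14.0% higher among all tested genes. TXNIP (chr1:145992435-145996600), the thioredoxin-interacting protein that restrains glucose uptake, was at 52.5, 66.7 and 69.8 CPM with siControl and 6.4, 13.3 and 8.64 CPM with siMlx. That is 15% of control, with no overlap (log2 -2.73, SE 0.22, edgeR adjusted p = 1.2e-08). ARRDC3 went from 74.1, 74.0 and 61.8 CPM to 21.7, 30.2 and 25.3 CPM (log2 -1.44, SE 0.12, adjusted p = 1.69e-08). ARRDC4, at 0.486 to 1.89 CPM in all 6 libraries, was at log2 0.17 (adjusted p = 0.811). The other targets that fell were the fatty acid elongase ELOVL6 (-0.56), hexokinase 2 (HK2, -0.49), KLF10 (-0.26) and ACLY (-0.24). The ACLY call ended without siControl replicate 1 (0.0634) or 3 (0.0552) or siMlx replicate 2 (0.0901), and that of KLF10 without siControl replicate 1 (0.0767) or siMlx replicate 3 (0.113). In the MAX and MLX network, MXD4 (0.44), MNT (0.24) and MYC (0.23) rose of 11 tested, and MLX alone fell. The MNT call ended without siControl replicate 3 (0.0614), and that of MYC without siControl replicate 1 (0.0895) or 2 (0.0828) or siMlx replicate 3 (0.0983).

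The gene with the smallest p of all those named lay in deoxynucleotide supply. DCTD (chr4:182890060-182917936), the deaminase that turns dCMP into dUMP for thymidylate synthesis, was at 135, 139 and 146 CPM with siControl and 26.2, 26.4 and 25.2 CPM with siMlx. Each group lay within a narrow band, and 18.5% of control remained (log2 -2.43, SE 0.06, edgeR adjusted p = 5.48e-16). CMPK1, the kinase for UMP and CMP, fell from 153, 161 and 165 CPM to 71.1, 69.0 and 71.4 CPM (log2 -1.18, SE 0.05, adjusted p = 3.69e-12). SAMHD1, which breaks down deoxynucleotides and is interferon-inducible, fell (-1.92), as did the ribonucleotide reductase subunit RRM2 (-1.12). Of 25 tested genes 8 fell and 3 rose (median -0.21), against 16.2% and 14.0% of all tested genes. For DCTD and CMPK1 the fall was larger without drug (log2 -3.24 and -1.87, interactions of 0.81 and 0.69, adjusted p = 4.19e-06 and 5.75e-06), whereas for RRM2 it was seen with drug and the interaction was -1.17 (0.00702).

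Genes of autophagy and lysosomes moved in both directions and not together as lists. RUBCN (listed as KIAA0226), the gene of the autophagy inhibitor Rubicon, fell from 49.8, 49.0 and 53.7 CPM to 24.1, 21.5 and 23.9 CPM (log2 -1.13, SE 0.10, edgeR adjusted p = 2.94e-08). STX17, the syntaxin of autophagosome fusion, fell from 62.6, 60.6 and 62.5 CPM to 33.0, 34.4 and 30.1 CPM (log2 -0.93, SE 0.07, adjusted p = 1.08e-08). The starter kinase ULK1 rose by 0.55. Of 54 tested autophagosome genes 14 rose and 13 fell (median -0.03, and 0.01 with upper-quartile scaling), and 9 rose without siControl replicate 3. Of 66 genes of the TFEB family and lysosome 10 rose and 9 fell (median 0.01), and 6 rose without siControl replicate 2. Both counts of the lysosomal list were near the shares over all tested genes, 14.0% higher and 16.2% lower. Both counts of the autophagosome list were above these shares. ARSB, a lysosomal sulfatase, fell (-1.2, SE 0.06, adjusted p = 2.21e-11), and PPT1 (-0.46), LAMP2 (-0.45) and the TFEB relative MITF (-0.69) fell, while FLCN rose (0.55). TFEB stood at -0.01 (adjusted p = 0.972), and at 0.03 with upper-quartile scaling. The mitophagy receptors BNIP3L (-1.09, SE 0.06, adjusted p = 1.25e-10) and BNIP3 (-0.55) and the kinase PINK1 (-0.50) fell. Of 16 mitophagy genes 5 fell in all and 2 rose, against 16.2% and 14.0% of all tested genes.

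Mitochondrial and redox genes changed little. Among 78 subunits of the respiratory chain encoded in the nucleus, 11 rose and 5 fell (median 0.03). The rises were near the share of all tested genes (14.0%), and the falls were below theirs (16.2%). These shares are the background for each list of this paragraph. The count of rises was 3 without siControl replicate 1, 7 without siControl replicate 2, 6 without siMlx replicate 2 and 4 without siMlx replicate 3, and that of falls 3 without siMlx replicate 1 or 3. PRDX3, the mitochondrial peroxiredoxin, was at 194, 197 and 192 CPM and at 181, 178 and 173 CPM (log2 -0.13, SE 0.05, edgeR adjusted p = 0.0526). It passed with DESeq2 (0.0438), with the filter of 1 CPM (0.0445) and with both groups fitted alone (0.0487). Of 37 genes of peroxiredoxins, thioredoxin and glutathione 7 rose and 5 fell, led by SLC7A11 (0.93), which imports cystine, and by GSS (0.48), which makes glutathione. The rises numbered 4 without siControl replicate 1 or 2 or siMlx replicate 2, and the falls 3 without siControl replicate 1 or 2 or siMlx replicate 1. Of 31 glycolytic genes 2 rose and 7 fell. The glucose transporter gene SLC2A3 rose from 78.8, 84.7 and 90.5 CPM to 147, 154 and 157 CPM (log2 0.85, SE 0.06, adjusted p = 6.45e-09), and PDK2 (-0.97), LDHA (-0.52) and PFKM (-0.40) fell. In the pentose phosphate pathway 5 of 12 rose and 1 fell, led by RPIA (1.2) and PGD (0.53), and 2 passed as higher without siControl replicate 3 and 3 without siControl replicate 2 or siMlx replicate 3.

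Secreted factors of senescence did not rise as a list. Of 38 tested 6 rose (3 without siControl replicate 2) and 7 fell (median log2 -0.04), near the 14.0% and 16.2% of all tested genes. IL6 was at 7.69, 6.45 and 7.58 CPM and at 7.27, 7.96 and 7.99 CPM, overlapping groups (log2 0.10, SE 0.18, edgeR adjusted p = 0.739). FGF2 fell from 271, 268 and 300 CPM to 147, 144 and 148 CPM (log2 -0.93, SE 0.10, adjusted p = 3.34e-07), and the interleukin-1 receptor gene IL1R1 fell too (-1.53). LMNB1, the lamin whose loss marks senescent cells, was at 14.5, 15.8 and 12.9 CPM and at 11.5, 10.8 and 8.37 CPM, without overlap (log2 -0.50, SE 0.20, adjusted p = 0.0627). It passed with the replicate number as a block (0.0427), with no filter on low counts (6.85e-06) and with both groups fitted alone (0.0119). With no filter its log2 was -0.49, so the smaller adjusted p did not come with a larger change. Of 24 NF-kB genes 6 fell and 2 rose (median -0.17), against 16.2% and 14.0% of all tested genes. CD83 (-2.79), the inhibitors of apoptosis BIRC3 (-1.70) and BIRC2 (-1.11) and the feedback inhibitor TNFAIP3 (-0.81) were among the falls.

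Cytosolic ribosomal protein genes leaned upwards by a small amount. Of 77 tested 33 rose and none fell (median log2 0.18, and 0.21 with upper-quartile scaling), each by 0.33 or less. Over all tested genes 14.0% rose and 16.2% fell. RPL10, of the large subunit, was at 734, 820 and 814 CPM and at 925, 957 and 982 CPM (log2 0.28, SE 0.05, edgeR adjusted p = 0.00036). The count moved with single libraries and with scaling: it was 53 with the replicate block, 57 with upper-quartile scaling, 55 without siMlx replicate 1, and 9, 18 and 15 without siControl replicate 1, siMlx replicate 2 and siMlx replicate 3. These genes have many processed pseudogenes, to which reads could be assigned. Ribosome biogenesis genes had 4 higher and 4 lower of 47 (median 0.04). In untreated cells 31 of them were higher with siMlx (median 0.30), against 24.9% of all tested genes. Negative interactions numbered 19, against 5.81% of all tested genes. They numbered 8 to 11 without untreated siMlx replicate 2, siControl replicate 1 or 3 with DXR, or siMlx replicate 1 or 2 with DXR.

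The largest rises came from genes of mixed function. CDC42SE2 (chr5:131245493-131398447), a small effector of the GTPase CDC42, rose from 12.1, 10.9 and 11.2 CPM to 38.7, 35.7 and 34.5 CPM, or 318% of control (log2 1.67, SE 0.09, edgeR adjusted p = 3.63e-11). NAT8L, which makes N-acetylaspartate, rose from 10.6, 10.3 and 10.3 CPM to 29.8, 27.6 and 26.0 CPM (log2 1.42, SE 0.12, adjusted p = 1.73e-08). The RNA-binding protein gene MEX3D (1.38), the deubiquitinase gene OTUD3 (1.32), the inositol phosphatase gene INPP5A (1.27), RPIA (1.2), the claudin gene CLDN12 (1.19), the phosphatase gene DUSP8 (1.15) and KBTBD11 (1.13) followed, all without overlap. LOC102724428 (1.10) completed the list with 2 less firm calls. RNA45S5, the ribosomal RNA precursor, is a repeated gene whose RNA lacks a poly(A) tail, whereas these libraries were made from poly(A) RNA. It stood at 1.12 (edgeR adjusted p = 0.0219) and lost its call without siControl replicate 2 (0.0848) or siMlx replicate 1 (0.0878) or 3 (0.0646). PABPN1, which binds poly(A) tails in the nucleus, stood at 1.11 (0.0211) and lost it without siControl replicate 3 (0.0747) or siMlx replicate 1 (0.135).

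**Figure D4:**
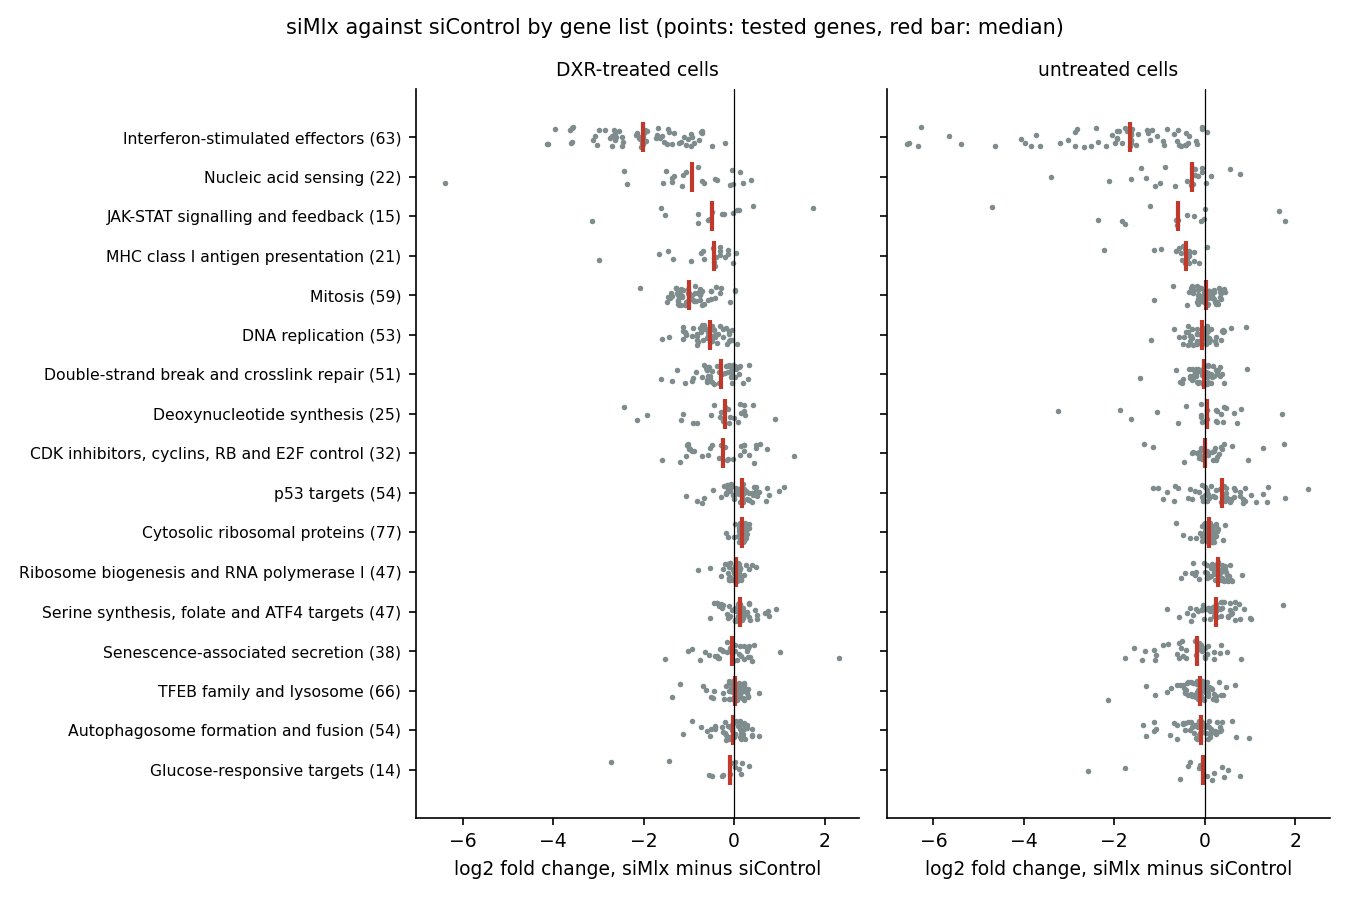
For 17 gene lists (number of tested genes in brackets), each point is a gene's log2 fold change of siMlx minus siControl, with DXR on the left and untreated on the right, and the red bar is the list's median. Interferon-stimulated effectors lie mostly to the left of 0 in both panels (medians -2.02 and -1.66), whereas mitosis does so with DXR only (-1.0 and 0.02).

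How far the effect of siMlx was shared between drug-treated and untreated cells could be measured without any common library. Across the 13676 genes, the log2 fold changes in both states had a Pearson correlation of 0.67 and a Spearman correlation of 0.65, as a description over genes that are not independent. Their SD was 0.46 with DXR and 0.61 without. In untreated cells 24.9% of genes were higher and 23.0% lower with siMlx. Of the 434 genes at least 2-fold lower with DXR, 259 were also at least 2-fold lower untreated, which is 59.7% of the DXR list and 36% of the 719 of the untreated list. Of the 76 genes at least 2-fold higher, 41 were so in both, which is 53.9% and 14.2% of the lists.

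**Figure D5:**
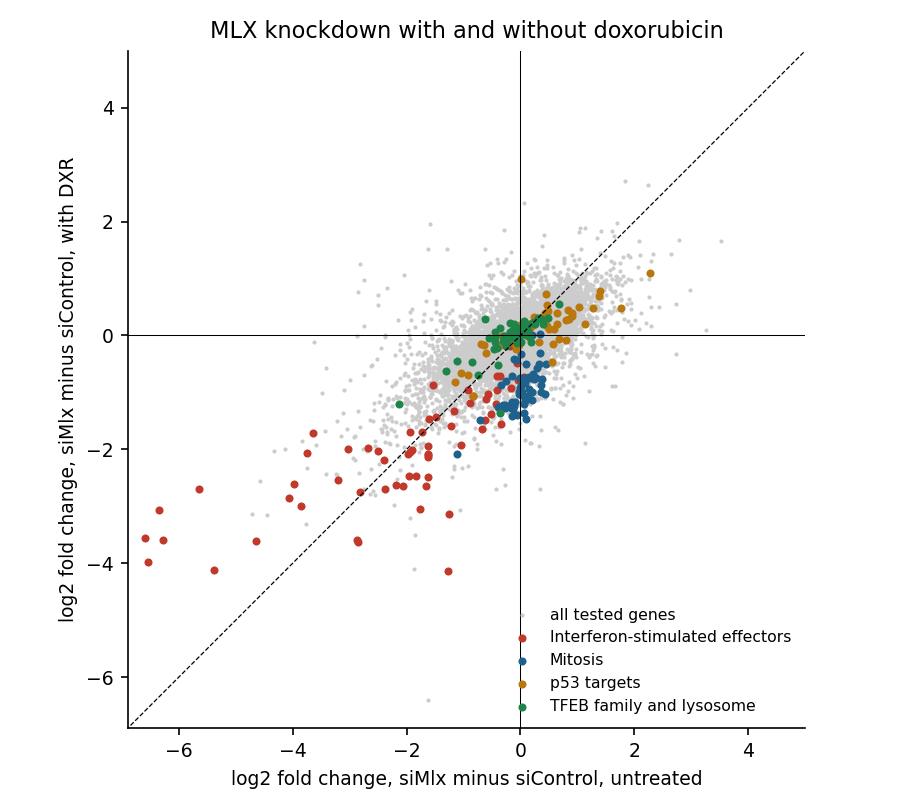
Each point is a tested gene, with the log2 fold change of siMlx minus siControl in untreated cells on the x axis and in DXR-treated cells on the y axis; the dashed line marks equal effects. Mitotic genes (blue) lie at or below 0.03 on the y axis and around 0 on the x axis (medians -1.0 and 0.02), and interferon-stimulated effectors (red) lie low on both; orange marks p53 targets, green the TFEB family and lysosome, and grey all tested genes.

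The interaction test called 880 genes positive (6.43%) and 795 negative (5.81%). The negative count fell to 502 without siMlx replicate 1 with DXR. Interferon-stimulated effectors, low in both states, had 8 negative and 1 positive interactions of 63. The negative count was 14 without untreated siControl replicate 1, and 5 without untreated siControl replicate 2, siControl replicate 1 with DXR or siMlx replicate 2 or 3 with DXR. The gene with a positive interaction was IFIT1, which with DXR went from 725, 522 and 639 CPM to 166, 47.8 and 80.2 CPM. Untreated it had 216, 79.4 and 56.1 CPM with siControl and 2.53, 2.17 and 2.35 CPM with siMlx, a larger fold (interaction log2 2.96, edgeR adjusted p = 0.0177; 0.0533 without untreated siMlx replicate 2). Among sensors 6 of 22 were negative and none positive, TREX1 (-1.16, adjusted p = 0.00123) and IFI16 (-0.81, 0.0055) among them. The gene TRIM69, a tripartite motif ubiquitin ligase, fell with DXR from 17.6, 12.2 and 14.6 CPM to 5.52, 5.08 and 3.13 CPM (log2 -1.69) and stood at -0.18 untreated (interaction -1.52, adjusted p = 0.000542). CDC25C, the phosphatase that starts mitosis, had an interaction of -1.56 (adjusted p = 0.00937). The 4 other genes that the naming rule gave for a negative interaction stood at log2 0.75 to 2.44 with siMlx in untreated cells, and 3 of them did not pass with DXR. NEURL1B, a ubiquitin ligase of Notch signalling, had 5.15, 4.28 and 7.11 CPM untreated with siControl and 7.02, 9.74 and 11.2 CPM with siMlx. With DXR it was at 0.968, 1.84 and 1.44 CPM against 0.64, 0.647 and 0.54 CPM (log2 -1.21, adjusted p = 0.0279; interaction -1.96, 0.00838), and the fall with DXR lost its call in 5 of the 6 fits without 1 library (0.0593 to 0.119). BATF3, an AP-1 family factor, was at 1.54, 1.37 and 2.78 CPM untreated with siControl and 6.12, 5.2 and 7.41 CPM with siMlx, and overlapped with DXR (-0.26, 0.627; interaction -1.96, 0.00632). LRATD1 had 0.334, 0.611 and 0.721 CPM untreated with siControl, 2.98, 2.78 and 3.23 CPM with siMlx, and 6.88 to 17.7 CPM in the 6 libraries with DXR (0.51, 0.12; interaction -1.94, 0.0143). Its interaction lost its call without untreated siControl replicate 1 (0.0655), and its difference with DXR passed with the replicate block (0.00765), with no filter on low counts (0.00117) and without siControl replicate 3 (0.0465) or siMlx replicate 1 (0.0235). ESM1, a secreted proteoglycan, was at 0.836, 0.56 and 1.3 CPM untreated with siControl, 3.59, 3.08 and 3.08 CPM with siMlx, and 3.69 to 7.29 CPM with DXR (0.29, 0.302; interaction -1.52, 0.00467).

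In the other direction NEK7, a kinase needed by the NLRP3 inflammasome, fell with DXR (-0.97) and without (-3.09; interaction 2.12, adjusted p = 1.81e-07), and BEX4 likewise (-0.53 and -2.63; interaction 2.09, 6.98e-05).

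The largest positive interactions were in small structural RNAs that lack a poly(A) tail, although the libraries were made from poly(A) RNA. RN7SL2 and RN7SL1, near-identical genes of the signal recognition particle RNA, had interactions of 4.07 and 3.73, and RN7SK, which holds the elongation factor P-TEFb inactive, had 1.96 (adjusted p = 0.000521, 0.000222 and 0.000622). With DXR none of the 3 passed between siMlx and siControl (log2 1.25, 0.98 and 0.25). RN7SL2 and RN7SL1 did pass with no filter on low counts, at an unchanged log2 of 1.25 and 0.98 (9.46e-07 and 3.33e-05). They also passed without siMlx replicate 1 (log2 1.67 and 1.36, edgeR adjusted p = 0.00851 and 0.00833). siMlx replicate 3 was the highest for all 3 and replicate 1 or 2 the lowest, and the groups overlapped. The interactions of all 3 rested more on untreated cells, where their levels were lower with siMlx, than on DXR-treated cells. Lysosomal genes had 13 positive interactions of 66 and none negative (8 without untreated siControl replicate 1 or untreated siMlx replicate 2), LAMP2 (0.67) and ARSB (0.93) among them. Of these genes 28 were lower with siMlx untreated and 9 with DXR, against 23.0% and 16.2% of all tested genes. A positive interaction was called for 6.43% of all tested genes.

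Knockdown of the partner protein parted widely from knockdown of MLX in the interferon genes. siMondoA with DXR lowered MLXIP to 1.63, 2.58 and 2.86 CPM, against 69.0, 67.5 and 72.6 CPM with siMlx. The direct test of siMlx against siMondoA, both with DXR, called 2740 genes higher with siMlx (20.0%) and 2591 lower (18.9%). All 63 tested interferon-stimulated effectors were lower with siMlx than with siMondoA (median log2 -2.61). IFIT2 was at 1145, 979 and 1499 CPM with siMondoA against 26.1, 22.7 and 18.9 CPM with siMlx (log2 -5.74, SE 0.24, edgeR adjusted p = 4.61e-13). OASL was at 109, 86.5 and 165 CPM against 3.49, 0.348 and 1.08 CPM (-6.25, SE 0.44, adjusted p = 9.07e-10). Against siControl with DXR, a control that both comparisons share, IFIT2 stood at 2.15 with siMondoA and -3.59 with siMlx, so that the siControl level lay between them. GBP4 (-5.65), TNFSF10, the gene of TRAIL (-5.60), RSAD2 (-5.57) and XAF1 (-5.56) were the other genes lowest relative to siMondoA.

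Other members separated both knockdowns too. TXNIP was low in both and lower with siMondoA, at 4.15, 3.85 and 4.85 CPM against 6.4, 13.3 and 8.64 CPM with siMlx (log2 1.15, SE 0.27, edgeR adjusted p = 0.00206). ARRDC3 was at 78.5, 80.0 and 64.1 CPM with siMondoA, all above the siMlx libraries (direct difference -1.53, SE 0.12, adjusted p = 3.96e-09). RUBCN was at 59.8, 57.1 and 78.9 CPM with siMondoA (-1.49, SE 0.10, adjusted p = 3.18e-10), and DCTD at 149, 138 and 148 CPM (-2.48, SE 0.06, adjusted p = 3.97e-16). PRDX3 was low with siMondoA, at 75.0, 69.5 and 71.4 CPM (1.3, SE 0.05, adjusted p = 3.93e-13). Of 59 mitotic genes 15 passed as higher with siMlx and none as lower (median 0.42), against 20.0% higher and 18.9% lower of all tested genes, and the other 44 did not pass. ANLN (0.08, adjusted p = 0.753) and BUB1 (0.23, 0.466) did not part the knockdowns, nor did CDKN1A (0.05, 0.635). After MLXIP, the genes highest with siMlx relative to siMondoA were KRT81 (2.53), TNFRSF10D (2.49), BTBD10 (2.49), GNPDA1 (2.21) and PRRC1 (2.17).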

How the data were processed

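Poly(A) RNA of 18 RPE-1 libraries was sequenced from TruSeq Stranded mRNA preparations, per the labels' protocols. Reads were written with bcl2fastq and aligned to GRCh38 with TopHat2 2.1.1, per the submitters' processing notes. The authors deposited raw gene counts, and beside them RPKM values, which are scaled to gene length and depth. Program, strand setting and annotation behind the counting were not given in the sources used here, so overlapping, antisense and near-identical genes are uncertain. The RPKM values were used only to compare levels between genes.

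Counts were tested with edgeR 4.0.16 in R 4.3.3: filterByExpr on the 6 groups, TMM scaling, and quasi-likelihood fits over all 18 libraries (12 residual degrees of freedom, biological coefficient of variation 7.42%), with Benjamini-Hochberg adjustment over the 13676 tested genes and a threshold of 0.05. Contrasts were siMlx against siControl with DXR, the same untreated, their difference, and siMlx against siMondoA with DXR. Of the listed genes 8275 had no count in any library. The fit was also run on simulated data, which used the same coefficient of variation for all genes and held no replicate effect. The alternatives comprised a replicate block, DESeq2 1.42.0, scaling by RLE or the upper quartile, leaving low counts unfiltered or asking for 1 CPM in 3 libraries, a fit of only the groups compared, and leaving out each library.

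Deviations from the group means correlated between same-numbered siMlx and siControl libraries with DXR by 0.241, 0.142 and 0.235, and between other pairs by -0.194 to -0.039. By the rule that each pair exceed 0.1, the replicate numbers from the labels pair the samples. The second principal component (17.1%) ordered both groups by replicate number, at 15, -3 and -14.3 with siControl and 24.3, -1.6 and -20.4 with siMlx. The values above still come from the fit without this pairing, unless the replicate block is named. With the block 4557 genes passed, against 4129.

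The comparison, the gene lists and the genes always named were chosen with earlier results of these data known. Named by rule were the 12 genes with the largest change in each direction past the threshold, at 5 CPM or more in the higher group and without overlap of libraries, 6 in each direction for the interaction and for siMondoA, and up to 6 members per list with the smallest p. Other list members were named after their values were seen. Promoter sequences came from RefSeq (GRCh38.p14), matched by symbol for 10522 of the 13676 tested genes. Values of some list members are not reported here.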

Additional observations from a re-analysis of the deposited data

Results flagged for a closer look

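The effect of siMlx differed between DXR-treated and untreated cells by the interaction test of edgeR (adjusted p under 0.05) for 880 genes in the positive and 795 in the negative direction. The values below are log2 interactions, effect with DXR minus effect untreated, of the genes named above.

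In cell division, replication and repair the interactions of ANLN (-0.77), BIRC5 (-0.90), BUB1 (-1.17), KIF20A (-1.12), MELK (-1.02), PLK1 (-1.45), CDC25C (-1.56), CCNA2 (-1.08), CCNB1 (-0.81), CCNE2 (-1.36), CDKN2C (-0.82), CDK1 (-1.25) and FOXM1 (-1.22) were negative. So were those of DNMT1 (-0.35), DTL (-0.97), ORC1 (-1.14), TK1 (-0.86), RRM2 (-1.17), ATR (-0.40), BRCA2 (-0.81), POLQ (-1.04) and LMNB1 (-1.08), while that of CDK6 was 0.65. Among p53 targets they were -0.48 for BAX, -1.18 for BBC3, -0.68 for BTG2 and -0.79 for CDKN1A, against 0.38 for BLOC1S2, 0.33 for FOXO3, 0.49 for MDM2, 0.99 for TNFRSF10D and 0.29 for TP53I3.

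In the interferon system and antigen presentation they were -0.81 for IFI16, -0.49 for IRF2, -1.16 for TREX1, -0.41 for TRAF3, -0.73 for MYD88, -1.52 for TRIM69, -1.13 for NLRC5, -0.52 for PSMB8, -0.82 for TAP2 and -0.85 for TNFAIP3. They were positive for IFIT1 (2.96), IRF9 (1.56), IL10RB (0.32), PTPN1 (0.63) and BIRC2 (0.60).

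In metabolism and organelles they were positive for DCTD (0.81), CMPK1 (0.69), PDK2 (0.59), PFKM (0.43), ARSB (0.93), LAMP2 (0.67), PPT1 (0.38), STX17 (0.43), BNIP3L (1.08) and PINK1 (0.65). They were negative for HK2 (-0.92), ELOVL6 (-0.44), RPIA (-0.86), GNPDA1 (-0.39), BNIP3 (-0.60) and PRDX3 (-0.31). Of the remaining genes NEURL1B (-1.96), BATF3 (-1.96), LRATD1 (-1.94), ESM1 (-1.52), CDC42SE2 (-1.12), NAT8L (-0.68), INPP5A (-0.38) and MLX itself (-0.36) were negative, and MXD4 (0.34), FGF2 (0.63), NEK7 (2.12), BEX4 (2.09), RN7SK (1.96), RN7SL1 (3.73) and RN7SL2 (4.07) were positive.

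Of these 78 genes, 57 kept the interaction call under every alternative run and 21 lost it under at least 1, most often when a library was left out: ANLN, BIRC5, BRCA2, BTG2, CCNE2, DNMT1, ELOVL6, FOXO3, GNPDA1, IFIT1, IL10RB, INPP5A, IRF2, LRATD1, MLX, MXD4, MYD88, ORC1, POLQ, TNFRSF10D and TP53I3.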

How the results depend on the processing

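Of the counts of genes past the threshold, 1 moved by over 1.5 times: the negative interactions, 795 as reported, ranged from 502 (without siMlx replicate 1 with DXR) to 872 when each library was left out in turn. The 4129 genes that differed between siMlx and siControl with DXR numbered 4045 with DESeq2, 4459 with upper-quartile scaling, 4074 with no filter on low counts and 3355 to 3723 without 1 library. With the replicate block they numbered 4557, of which 4111 were shared with the 4129. Without the filter, adjusted p fell by orders of magnitude at a nearly unchanged log2 for LMNB1, RN7SL1, RN7SL2 and LRATD1. Calls gained in that fit alone are therefore no sign of a firmer difference. No value past the test changed direction under these alternatives, while 194 values that did not pass changed sign. Of the values for single genes and lists under the alternatives, 326 lost and 175 gained a call and 101 counts moved by over 1.5 times, against 12676 that did neither. With 3 libraries a group and 18342883 to 21858817 counts a library, genes of a few counts, IFNB1 among them, could not be tested.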
